A study of Homo sapiens with 6 samples.

Results

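The nuclear-encoded subunits of the mitochondrial respiratory chain and the ATP synthase were followed in PC9, a human lung adenocarcinoma cell line that carries an activating EGFR deletion. The members were all rows of the gene table whose symbols name these subunits: NDUFA, NDUFB, NDUFC, NDUFS or NDUFV with a number, SDHA to SDHD, UQCR genes, CYC1, COX4 to COX8 genes and ATP5 genes. This gave 87 genes of 16306, with 37 in complex I, 4 in complex II, 10 in complex III, 16 in complex IV and 20 in complex V. The name rule also takes in genes that are not core subunits, namely read-through genes, gene copies, tissue isoforms and the factors ATP5IF1 and COX7A2L, and these are named as such. RNA was sequenced from 3 samples given a control shRNA, called sh-NC, and from 3 samples in which an shRNA targeted RBM10 (shRBM10), an RNA-binding regulator of splicing. No drug treatment is given for either group, both come from the single PC9 line, and neither the labels nor the study's methods say which RBM10 shRNA the sequenced cells carried. The shRBM10 libraries are called A, B and C, because only A (replicate 1) could be matched to a replicate number.

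The respiratory chain sits in the inner mitochondrial membrane. Complexes I and II pass electrons from NADH and succinate to ubiquinone, complex III passes them on to cytochrome c, complex IV reduces oxygen, and the proton gradient that builds up drives the ATP synthase, complex V. Most subunits are encoded in the nucleus and imported, while a small set of catalytic core subunits is encoded in mitochondrial DNA. The gene table held 0 of the mitochondrially encoded subunit genes, so the mitochondrially encoded partners in these complexes were not analysed here.

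The 6 libraries held between 16606401 and 18864241 counts on genes. RBM10 itself had normalized counts of 1431, 1183 and 1469 in sh-NC against 537, 515 and 672 in shRBM10, with no overlap between groups (log2 fold change -1.24, SE 0.23, edgeR quasi-likelihood adjusted p = 0.10). The epithelial markers KRT8, KRT18, KRT19, EPCAM, CDH1 and EGFR were present in every library. Of 4 lung lineage markers, NAPSA alone reached 10 counts in any library, and NKX2-1, SFTPB and SFTPC stayed near 0. Among markers of other cell types, PECAM1, COL1A2, PTPRC, CRX and PDE6B were at no more than 6.71 normalized counts, COL1A1 and NRL reached 178 and 157, and CD68 stood at 1810 to 3344. The endothelial gene CDH5 moved with the groups at 161, 83.5 and 159 in sh-NC against 41.1, 59.4 and 54.7 in shRBM10. VWF, also endothelial, moved the same way at 24.5, 15.1 and 16.2 against 5.13, 8.62 and 8.64. The part of CDH5 and VWF in the results was not tested. The sh-NC replicate 2 library stood apart from the other controls: its EGFR normalized count was 2588 against 12327 and 13176, and its chi-square per degree of freedom over all genes was 159 against replicate 1 and 165 against replicate 3. Replicates 1 and 3 differed by 2.94 on the same measure, more than the counting error alone gives, and were kept as separate samples as labelled. The next closest pair, shRBM10 libraries A and B, differed by 29.9. Fits without replicate 2 take the whole control spread from replicates 1 and 3, and their p-values carry this limit. Median log2 fold changes over all members and by complex, and the members described in the passages by complex, are given with and without replicate 2. The medians by promoter motif rest on all 6 libraries only. In RNA from bulk cultures, fewer cells of a type and less RNA per cell cannot be told apart.

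As a group the members were abundant, though single members were not. On the authors' TPM scale, which divides by transcript length and is scaled to the same sum in each library, the members together held 3.27%, 3.95% and 3.19% of all TPM in sh-NC replicates 1 to 3 and 2.96% in shRBM10 library A, the 4 libraries for which TPM was used here. The median TPM over members, taken on the mean of the 3 controls, was 168 in complex I, 163 in complex II, 182 in complex III, 441 in complex IV and 270 in complex V. The highest was COX6A1, a small supernumerary subunit of complex IV, at 2063 ± 468 TPM (SD, n = 3), followed by NDUFA1 of complex I at 1640 ± 246 TPM. Their ranges of mean ± SD overlapped. Within each control COX6A1 stood above NDUFA1, at 1790, 2604 and 1796 TPM against 1594, 1905 and 1420 TPM. Among the subunits of the ATP synthase's catalytic head and shaft, ATP5F1B (the beta subunit) stood at 1149 ± 21.1 TPM, ATP5F1C (gamma) at 346 ± 96.5 TPM and ATP5F1A (alpha) at 242 ± 6.89 TPM. The lowest-placed core subunit was NDUFS1, the largest iron-sulfur subunit of complex I, at 3.17 ± 0.695 TPM. The NDUFS1 transcript matched for GC content is 11819 nucleotides long, and TPM depends on the length the authors used.

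Tissue and stress isoforms were low or absent. COX4I2 (the hypoxia-linked partner of COX4I1), COX8C (a testis isoform) and the copies UQCRHL and ATP5MGL had at most 1 count per library after rounding and were not tested. NDUFA4L2, a hypoxia-linked relative of NDUFA4, had normalized counts of 37.2, 42.4 and 36.1 in sh-NC and 29.8, 33.5 and 40.3 in shRBM10. COX6B2, a testis isoform, stood at 18.1, 13.7 and 10.8 in sh-NC against 22.6, 13.4 and 26.9 in shRBM10, and for both genes the groups overlapped. The 2 read-through genes were low as well: NDUFC2-KCTD14 stood between 33.4 and 69.8 in sh-NC and between 23.6 and 57.5 in shRBM10, and ATP5MF-PTCD1 had counts of 0 in sh-NC replicate 2 and in shRBM10 library C. Read-through genes and near-identical copies share reads with their parent genes, so their counts are uncertain.

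The comparison of shRBM10 with sh-NC asks which members differ when RBM10 is depleted. Of the 83 members that passed edgeR's filter on low counts, 0 were called higher and 0 lower with an adjusted p below 0.05 and a log2 fold change beyond 1 in size, against 2 genes higher (0.0158%) and 0 lower (0%) of all 12620 genes tested. The adjusted p of the members lay between 0.18 and 0.89, and DESeq2 and limma-voom also called 0. At an unadjusted p under 0.05, 4 members were lower (CYC1, COX8A, ATP5F1D and NDUFS7; 8.6% of all genes were lower by this rule) and 1 was higher (NDUFS1; 15.7% of all genes). The median log2 fold change was -0.49 over the 83 members, with 76 below 0, and 0.03 over all genes tested, with 48.4% below 0. With sh-NC replicate 2 left out, the members' median was -0.09, with 58 below 0 and 25 above, while the median of all genes was 0.02.

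How many members passed at an unadjusted p depended on the fit. With sh-NC replicate 2 left out, 2 members were lower (CYC1 and COX8A, against 12.7% of all genes) and 3 were higher (NDUFV2, UQCRC2 and NDUFS1, against 11.6%). With replicate 1 left out, 23 were lower and 0 higher (6.99% and 15% of all genes), and with replicate 3 left out, 27 were lower and 0 higher (6.98% and 14%). The 2 last fits each pair replicate 2 with a single other control. DESeq2 gave 9 lower and 1 higher (8.79% and 17%). With GC content trends removed, 13 were lower and 0 higher (11% and 7.47%), and with trends of both GC content and length removed, 25 were lower and 1 was higher (14.7% and 10.8%).

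**Figure D1:**
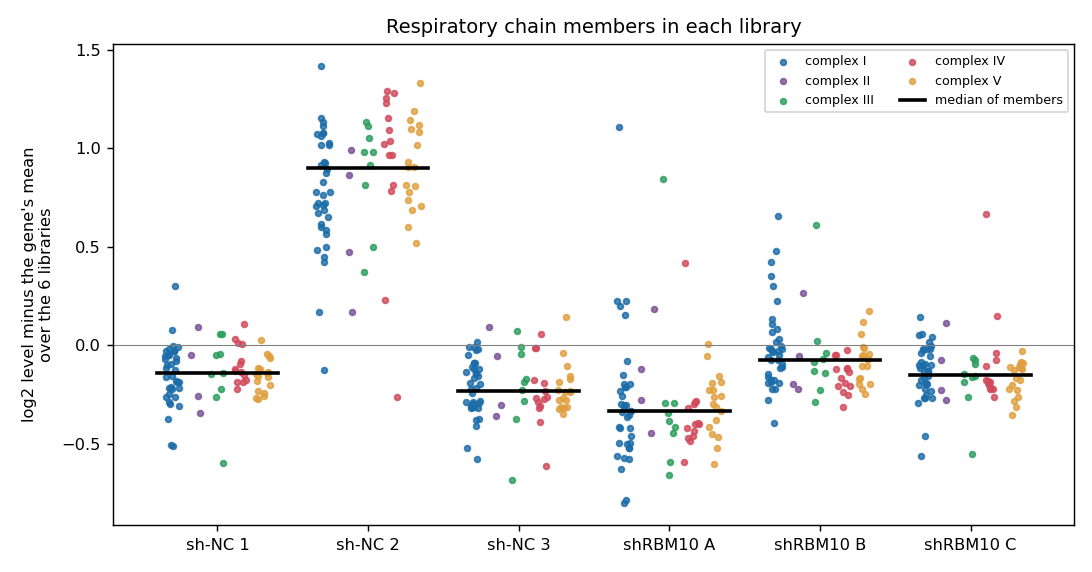
The level of each member in each library as log2 normalized count minus that gene's mean over the 6 libraries (y axis), by library (x axis), with members coloured by complex and a black line at the median. The plot shows 82 tested members, without the read-through ATP5MF-PTCD1, and the median of sh-NC 2 lies above the other 5.

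The library of sh-NC replicate 2 lay further from the other controls, by the members' median ratio, than any shRBM10 library did. In sh-NC replicate 2, 78 of 83 members had their highest level of all 6 libraries, against 34.7% of all genes tested, and the members' median ratio to the mean of replicates 1 and 3 was 2.02 (quartiles 1.76 and 2.41). Over the same members, replicate 3 had a median ratio of 0.96 to replicate 1. The median ratios of shRBM10 to sh-NC replicates 1 and 3 were 0.86 in library A, 1.05 in library B and 1.01 in library C. In library C, 77 of 83 members lay within 20% of those 2 controls. In library A, 58 members lay below both of these controls and 16 above both. The shares of all genes placed in these ways are not given, so these counts for libraries A and C have no background. Over all genes, the chi-square per degree of freedom of library C was 30.0 against sh-NC replicate 1 and 30.4 against replicate 3. It was 98.3 against library A and 54.2 against library B. The closeness of library C to those controls was therefore seen over all genes and is not particular to the members.

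This placement of replicate 2 depends on the scale. On TPM, the members' median ratio of replicate 2 to the mean of replicates 1 and 3 was 1.05. Of 83 members, 48 lay above both of those controls and 27 below both. Over all genes tested the median was 0.51, with 954 of 12619 above both and 11144 below both. On normalized counts the median ratio over all genes was 1.01. On both scales the members in replicate 2 therefore stood about equally far above the median gene of that library. CYC1 is an example: its TPM was 508, 499 and 523 in sh-NC replicates 1 to 3, with no excess in replicate 2, and 319 in library A. ATP5F1B likewise had 1144, 1131 and 1172 TPM in sh-NC and 889 TPM in library A.

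Transcript length moved with the level of genes in sh-NC replicate 2. Over all genes tested, the log2 ratio of replicate 2 to the mean of replicates 1 and 3 on normalized counts had Spearman's rho of -0.63 with transcript length, given as a description across genes of shared libraries. Its median was 0.90 for 826 genes shorter than 1000 nucleotides and -0.50 for 6036 genes of 3000 or more. The members are short, with a median of 963 nucleotides against 2907 for all genes tested. Among members the median log2 ratio was 1.11 for the 43 below 1000 nucleotides, 0.89 for the 28 in between and 1.17 for the 11 of 3000 or more. Over 82 members rho was -0.31. For 85 of 87 members the length is that of 1 matched transcript, which can differ from the length behind the authors' TPM. In sh-NC replicate 1, COX7B (446 nucleotides) had 3118 counts at 94.3 TPM, while COX8A (507 nucleotides) had 5292 counts at 1447 TPM. The part of length in the members' placement in replicate 2 was not tested beyond these values.

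By complex, the median log2 fold change was -0.44 in complex I (33 of 37 below 0), -0.25 in complex II (3 of 4), -0.55 in complex III (8 of 9), -0.54 in complex IV (13 of 14) and -0.54 in complex V (19 of 19). These medians were -0.11, -0.07, -0.08, -0.14 and -0.054 when sh-NC replicate 2 was left out. For 20 members every shRBM10 library was below every control (16.2% of all genes), and for 0 members every one was above (13.8% of all genes). These 20 were 10 genes of complex I, SDHB of complex II, CYC1, UQCRC1 and UQCRFS1 of complex III, COX5A, COX6A1 and COX8A of complex IV, and ATP5F1B, ATP5F1D and ATP5MC3 of complex V. Set against sh-NC replicates 1 and 3 alone, 21 members had all 3 shRBM10 libraries below and 10 had all 3 above, where all genes gave 23.4% below and 23.4% above.

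**Figure D2:**
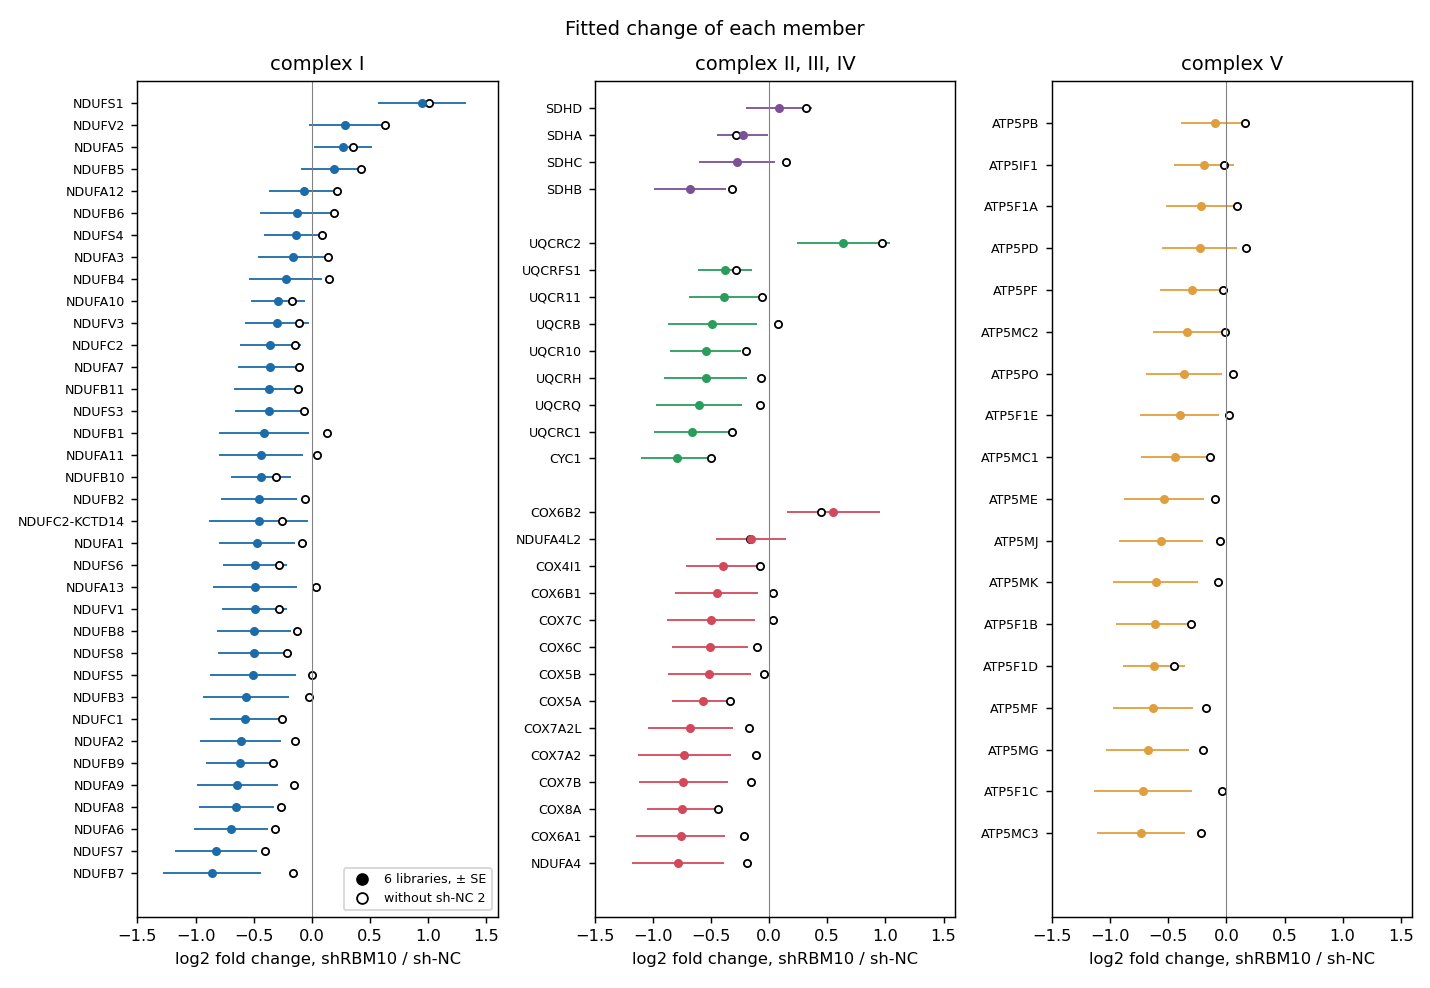
Fitted log2 fold change of shRBM10 over sh-NC (x axis) for 81 tested members (y axis), by complex, with filled points and bars for the fit on 6 libraries ± SE and open circles for the fit without sh-NC replicate 2. The open circles lie closer to 0 for most members, and NDUFS1 and UQCRC2 stay above 0 in both.

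In complex I, electrons enter from NADH through the N module, whose flavin and iron-sulfur subunits are NDUFV1, NDUFV2 and NDUFS1, and leave to ubiquinone through the Q module, which includes NDUFS3, NDUFS7 and NDUFS8. NDUFS1 had normalized counts of 566, 738 and 540 in sh-NC and of 1735, 1268 and 544 in shRBM10. Libraries A and B were above every control, while library C lay within the control range (log2 fold change 0.94, SE 0.38, unadjusted p = 0.033, adjusted p = 0.18 in edgeR, and 0.056 to 0.76 over the alternatives). Its log2 fold change was 1.01 (SE 0.41) without sh-NC replicate 2. NDUFV2 was higher in libraries A, B and C than in sh-NC replicates 1 and 3 but highest in replicate 2, at 765, 1539 and 759 in sh-NC and 1272, 1459 and 1005 in shRBM10, with log2 fold changes of 0.29 on all libraries and 0.63 (SE 0.21) without sh-NC replicate 2, where its unadjusted p was 0.016 and its adjusted p 0.16 in edgeR. NDUFV1, the flavin-binding subunit, was placed the other way, at 5294, 8765 and 5262 in sh-NC and 3708, 4762 and 5262 in shRBM10 (log2 fold change -0.49, SE 0.28, and -0.28 without sh-NC replicate 2), so that library C and sh-NC replicate 3 differed by less than a single count.

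The Q module subunit NDUFS7, which holds the last iron-sulfur cluster before ubiquinone, had 1098, 2492 and 1115 normalized counts in the controls and 644, 1013 and 998 in shRBM10. Its groups did not overlap, yet libraries B and C lay close to sh-NC replicates 1 and 3 (log2 fold change -0.82, SE 0.35, edgeR adjusted p = 0.20). The log2 fold change of NDUFS7 was -0.40 with sh-NC replicate 2 left out, at an unadjusted p of 0.13. In the same module, the log2 fold change was -0.37 for NDUFS3 and -0.50 for NDUFS8, with overlapping groups, and -0.067 and -0.22 without that replicate. NDUFB7, a subunit of the membrane arm, had the lowest value in the complex at -0.86 (SE 0.42), and -0.17 without sh-NC replicate 2, in which it stood at 5998 normalized counts against 1827 and 2003.

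Complex II, the succinate dehydrogenase of the citric acid cycle, has the catalytic subunits SDHA and SDHB and the membrane anchors SDHC and SDHD. SDHA, the flavoprotein, was the member least raised in sh-NC replicate 2 among the core subunits here, with 5402, 5696 and 5404 normalized counts in the controls against 4186, 4428 and 5479 in shRBM10 (log2 fold change -0.23, SE 0.22). SDHB, the iron-sulfur subunit, had 1911, 3935 and 1906 in sh-NC and 1455, 1696 and 1693 in shRBM10, with no overlap between groups and an unadjusted p of 0.053 (log2 fold change -0.68, SE 0.31). SDHC stood at -0.28 and SDHD at 0.08, the lowest and highest of the complex being SDHB and SDHD. The 2 anchors were at 0.14 and 0.31 without sh-NC replicate 2, and the 2 catalytic subunits at -0.28 and -0.32.

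In complex III, CYC1 (cytochrome c1) and the Rieske protein UQCRFS1 carry electrons, and UQCRC1 and UQCRC2 are the large core proteins. CYC1 had normalized counts of 6553, 12439 and 6625 in sh-NC and 3996, 5162 and 5637 in shRBM10, or 8539 ± 3378 against 4932 ± 845 (SD, n = 3 each). All 3 shRBM10 libraries lay below all controls (log2 fold change -0.79, SE 0.31, edgeR unadjusted p = 0.029, adjusted p = 0.18), and without sh-NC replicate 2 the log2 fold change was -0.50 (SE 0.19, unadjusted p = 0.032, edgeR adjusted p = 0.18). The value stayed below 0 in all 16 alternative fits. UQCRC1 was placed in the same direction, at 4712, 9588 and 4720 in sh-NC and 3229, 4153 and 4610 in shRBM10 (log2 fold change -0.67, SE 0.32, edgeR adjusted p = 0.23), and its log2 fold change was -0.32 without sh-NC replicate 2.

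UQCRC2, the partner of UQCRC1, had 1052, 2057 and 989 normalized counts in the controls, and 2857, 2429 and 1086 in shRBM10. As for NDUFS1, libraries A and B were above every control and library C was near sh-NC replicates 1 and 3 (log2 fold change 0.64, SE 0.40, edgeR adjusted p = 0.32). The log2 fold change of UQCRC2 was 0.97 with replicate 2 left out (SE 0.36, unadjusted p = 0.027, edgeR adjusted p = 0.17). The small subunits UQCRQ, UQCRH, UQCR10, UQCRB and UQCR11 had values between -0.60 and -0.39, and between -0.20 and 0.08 without that replicate.

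**Figure D3:**
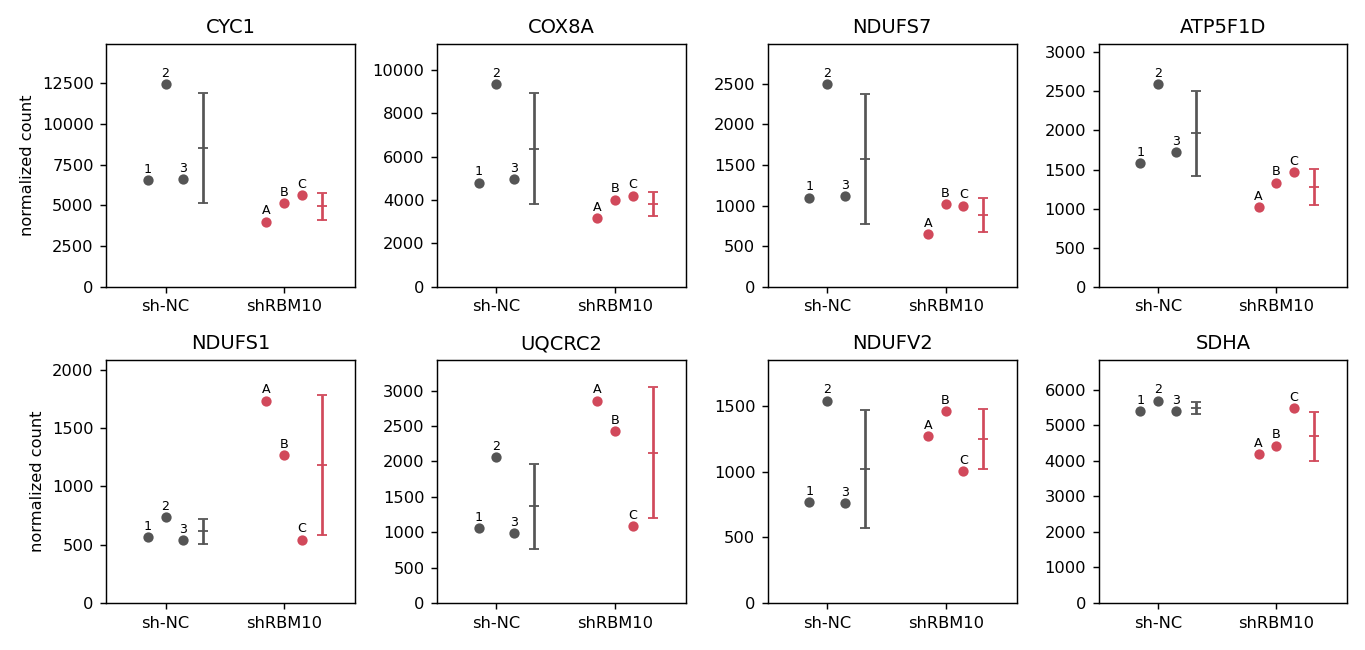
Normalized counts (y axis, from 0) of 8 members in each library, with sh-NC replicates 1 to 3 in grey and shRBM10 libraries A to C in red, and bars for mean ± SD beside the points. The shRBM10 libraries lie below the controls for CYC1, COX8A, NDUFS7 and ATP5F1D, and libraries A and B lie above the controls for NDUFS1 and UQCRC2.

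In complex IV, the nuclear subunits surround a core encoded in mitochondrial DNA. COX8A, the ubiquitous form of subunit VIII, had 4799, 9332 and 4980 normalized counts in the controls and 3177, 4015 and 4205 in shRBM10, with no overlap (log2 fold change -0.75, SE 0.30, unadjusted p = 0.035, edgeR adjusted p = 0.19). Its log2 fold change was -0.44 without sh-NC replicate 2 (SE 0.18, unadjusted p = 0.041, edgeR adjusted p = 0.19). COX4I1, COX5A and COX5B, which pack against the catalytic core, had values of -0.40, -0.57 and -0.51, and COX5A alone of these had groups that did not overlap. Without sh-NC replicate 2 the values were -0.08, -0.34 and -0.04. NDUFA4, once assigned to complex I and counted with complex IV here, was lowest at -0.79 (SE 0.39), but stood at -0.19 without sh-NC replicate 2, where COX8A was lowest. COX6B2 was highest at 0.55 (SE 0.40), or 0.45 without that replicate, on at most 26.9 normalized counts in any library. COX7A2L, a factor of respiratory supercomplexes, had -0.68 (SE 0.36) and -0.17 without sh-NC replicate 2.

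In complex V, ATP5F1D (the delta subunit of the rotor stalk) had 1583, 2589 and 1719 normalized counts in the controls, against 1024, 1334 and 1469 in shRBM10. Its groups did not overlap (log2 fold change -0.62, SE 0.26, unadjusted p = 0.041, edgeR adjusted p = 0.19), and without sh-NC replicate 2 the value was -0.45 (SE 0.21, unadjusted p = 0.059). ATP5F1B, the most highly counted member, had 23587, 45789 and 23791 in sh-NC and 17917, 20602 and 22482 in shRBM10 (log2 fold change -0.61, SE 0.34, and -0.30 without sh-NC replicate 2). ATP5F1A and ATP5F1C, which build the same catalytic head and shaft, had -0.22 and -0.72, and 0.09 and -0.04 without sh-NC replicate 2. ATP5IF1, the inhibitor that blocks ATP hydrolysis, had -0.19 (SE 0.26), and -0.02 without that replicate. ATP5PB of the peripheral stalk was highest at -0.10 (SE 0.29), or 0.16 without sh-NC replicate 2, and the read-through ATP5MF-PTCD1 was lowest at -0.79 with an SE of 0.99, or -1.38 without that replicate.

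Base composition moved with the levels in libraries A and B. Over the 83 members, the log2 ratio to the mean of sh-NC replicates 1 and 3 had Spearman's rho of -0.57 with transcript GC content in library A, -0.42 in library B and, over the 82 members with a count above 0, -0.08 in library C. These are correlations across genes that share libraries, and are given as a description. For the 22 members with GC content below 45%, the median log2 ratio was -0.01 in A, 0.23 in B and 0.02 in C. For the 23 members at 55% or more it was -0.37 in A, -0.06 in B and 0.02 in C. Over all genes tested the same split gave 0.95 and -0.46 in A, 0.67 and -0.34 in B, and -0.01 and 0.00 in C. NDUFS1 has a GC content of 42.1%, UQCRC2 of 45.5% and NDUFV2 of 47.5%, while CYC1, COX8A, NDUFS7 and ATP5F1D have 61.8%, 58.6%, 66.5% and 69.3%.

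**Figure D4:**
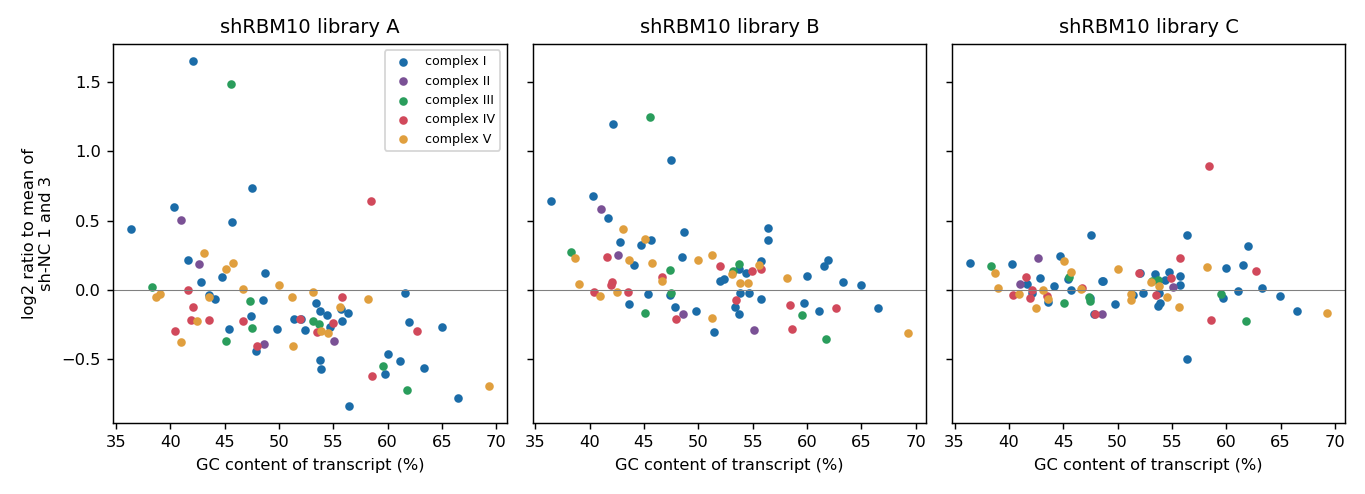
log2 ratio of each shRBM10 library to the mean of sh-NC replicates 1 and 3 (y axis) against the GC content of the transcript in percent (x axis), for the members of each complex, without ATP5MF-PTCD1. Points slope down in libraries A and B (rho -0.57 and -0.42) and not in library C (rho -0.08).

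With each library's GC trend over all genes removed, the log2 fold change was 0.17 for NDUFS1, 0.14 for UQCRC2 and 0.02 for NDUFV2. With trends in both GC content and length removed these were -0.39, 0.23 and 0.28. CYC1 stood at -0.49 and -0.28, COX8A at -0.49 and -0.32, NDUFS7 at -0.47 and -0.23, and ATP5F1D at -0.25 and -0.09. The part of base composition and length in these differences was not tested beyond these fits.

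Other mitochondrial gene lists, the regulators apart, were also highest by their median in sh-NC replicate 2. Their median log2 fold changes in shRBM10 were -0.50 over 78 mitochondrial ribosomal proteins (0 higher and 19 lower at an unadjusted p under 0.05), -0.25 over 55 assembly factors of the chain (1 and 8), -0.41 over 28 import proteins (3 and 10), -0.12 over 19 enzymes of the citric acid cycle (4 and 0), -0.36 over 17 genes of cytochrome c and coenzyme Q (1 and 0) and -0.31 over 11 genes of the cristae (1 and 3). Of all genes tested, 15.7% were higher and 8.6% lower by this rule. None of the listed genes passed the adjusted threshold with a log2 fold change over 1 in either direction. Leaving out sh-NC replicate 2 gave medians of -0.17, -0.04, -0.10, 0.01, -0.25 and -0.09. Among 18 tested regulators of respiratory genes the median was 0.27 (3 and 3), and 0.13 without sh-NC replicate 2, with 9 above 0 and 9 below. NRF1 (nuclear respiratory factor 1, an activator of many subunit promoters) had 276, 398 and 270 normalized counts in the controls and 241, 249 and 272 in shRBM10. The excess in sh-NC replicate 2 was not limited to mitochondria, since the 82 cytosolic ribosomal proteins had a median ratio of 2.33 to replicates 1 and 3 and the 38 proteasome subunits one of 1.74. The median transcript length was 822 nucleotides for the cytosolic ribosomal proteins and 1542 for the proteasome subunits.

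Among the import proteins, TOMM40 (the pore of the outer membrane translocase) had 2947, 2940 and 2917 normalized counts in the controls and 1227, 1427 and 1863 in shRBM10. The 3 controls of TOMM40 lay within a narrow band, all shRBM10 libraries were below them, and the log2 fold change was -0.96 (SE 0.23, edgeR adjusted p = 0.14). It was chosen after its values were seen, as a gene of the wider list that sh-NC replicate 2 does not raise.

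**Figure D5:**
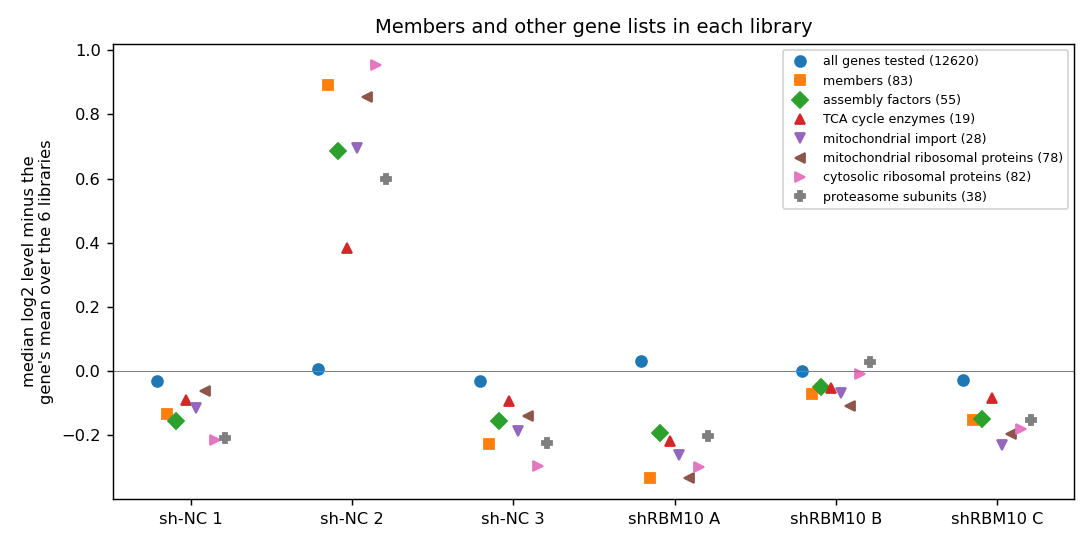
Median log2 level of each gene list in each library, relative to each gene's mean over the 6 libraries (y axis), by library (x axis), with the number of genes tested in the legend. In sh-NC 2 the members (0.89) stand between the mitochondrial ribosomal proteins (0.85) and the cytosolic ribosomal proteins (0.96), while all genes tested stand at 0.01.

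Transcript usage was tested because RBM10 regulates splicing. Of 45 members with at least 2 transcripts to compare, 0 passed at an adjusted Simes p under 0.05 and 0 at an unadjusted one, against 0.0975% and 2.69% of the 8205 genes tested. The smallest p belonged to SDHA at 0.37, followed by ATP5MC1 (0.69), NDUFB5 (0.73), NDUFC1 (0.74) and ATP5F1D (0.81), all with adjusted p = 1.00 in edgeR. The leading SDHA transcript NM_004168 held 92.6%, 91.8% and 90.9% of the gene's counts in the controls, and 91.0%, 94.9% and 95.4% in shRBM10. Its minor transcript NM_001330758 held 4.22%, 4.48% and 4.19% against 2.32%, 2.14% and 1.54%, without overlap. In NDUFB5 the minor transcript NM_001199957 held 12.5%, 11.3% and 13.2% against 7.82%, 8.83% and 9.31%, also without overlap. Both were chosen after their values were seen, and the share of all transcripts without overlap is not given. That no member passed does not mean that no transcript share differed. For NDUFS1 the leading transcript NM_005006 held 96.8 ± 1.5% in sh-NC and 97.4 ± 1.1% in shRBM10. For UQCRC2 a single listed transcript held the counts in every library. A single transcript held over 90% of the control counts in 63 of 87 members.

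Binding motifs of NRF1, ETS factors and YY1 are known from promoters of some respiratory chain genes, and these, the GC box and the TATA box were counted in the members' promoters. RefSeq windows on GRCh38.p14, from 250 bases before to 50 bases after the start, were found for 68 of 87 members, and the first listed start of a gene was used. The NRF1 motif (GCGCA, any base and GCGC) was present on either strand in 17 of these (25%), in 11.7% of the promoters of genes tested and in 6.28% of all 27305 promoters. The ETS motif CCGGAAGT was present in 10 (14.7%, against 9.0% and 4.44%) and the YY1 motif AAGATGGCG in 8 (11.8%, against 4.03% and 1.85%). The GC box GGGCGG was present in 43 (63.2%, against 70.8% and 44.6%) and the TATA box TATAAA in 6 (8.82%, against 5.49% and 12.0%). The motifs searched do not contain each other. Members with and without the NRF1 motif had median log2 fold changes of -0.41 and -0.46. The same medians were -0.50 and -0.45 for ETS, -0.65 and -0.45 for YY1 (8 members with it), -0.47 and -0.44 for the GC box, and -0.49 and -0.45 for the TATA box. These medians include sh-NC replicate 2 and were not computed without it. A match is a description of letters and not a site of binding.

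Shown here are the 250 bases before the start of 4 members, so that the pair above the controls in libraries A and B (NDUFS1 and UQCRC2) can be read beside COX8A and UQCRC1, which lay below. All are printed in the direction of transcription, and capitals mark NRF1 or ETS matches. NDUFS1 and COX8A each hold an ETS match on the opposite strand, UQCRC1 holds an NRF1 match, and UQCRC2 holds none of the NRF1, ETS or YY1 motifs in this window. Of the motifs not capitalized, UQCRC2 holds a TATA box at -93 from the start. GC boxes lie at -95 in NDUFS1, -157 in COX8A and -201 in UQCRC1. GC content was 64.4% for NDUFS1, 48.4% for UQCRC2, 56.0% for COX8A and 67.2% for UQCRC1.
NDUFS1 promoter, chr2:206159445-206159694, minus strand: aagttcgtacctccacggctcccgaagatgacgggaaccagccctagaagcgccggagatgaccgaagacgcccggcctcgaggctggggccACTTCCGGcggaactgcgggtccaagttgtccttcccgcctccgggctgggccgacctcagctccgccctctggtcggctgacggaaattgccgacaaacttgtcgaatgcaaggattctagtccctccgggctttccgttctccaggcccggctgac
UQCRC2 promoter, chr16:21953111-21953360, plus strand: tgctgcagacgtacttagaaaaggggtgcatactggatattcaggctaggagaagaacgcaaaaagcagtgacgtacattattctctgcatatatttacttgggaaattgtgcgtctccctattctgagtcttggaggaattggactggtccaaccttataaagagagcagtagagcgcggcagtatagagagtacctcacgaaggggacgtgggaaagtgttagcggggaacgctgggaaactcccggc
COX8A promoter, chr11:63974370-63974619, plus strand: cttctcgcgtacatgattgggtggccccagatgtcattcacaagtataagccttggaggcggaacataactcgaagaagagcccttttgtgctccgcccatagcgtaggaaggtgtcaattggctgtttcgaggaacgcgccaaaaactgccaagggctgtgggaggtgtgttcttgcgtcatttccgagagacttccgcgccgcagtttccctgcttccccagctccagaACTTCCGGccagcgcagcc
UQCRC1 promoter, chr3:48609647-48609896, minus strand: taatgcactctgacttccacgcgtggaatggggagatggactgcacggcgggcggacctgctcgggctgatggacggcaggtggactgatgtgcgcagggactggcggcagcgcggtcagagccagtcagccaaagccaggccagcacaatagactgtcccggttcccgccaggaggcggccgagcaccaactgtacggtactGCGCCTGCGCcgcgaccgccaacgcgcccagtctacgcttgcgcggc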

How the data were processed

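The authors deposited estimated counts and TPM per gene and estimated counts per RefSeq transcript. Per the labels the build is hg38; the aligner, counter and annotation are not given in the sources used here. The protocol text in the labels names retinas and 2 library kits, while the other labels give PC9 cells. Estimated counts of all 6 libraries were rounded. Genes were filtered with filterByExpr (12620 kept), scaled by TMM and tested with edgeR 4.0.16 glmQLFit and glmQLFTest (limma 3.58.1, R 4.3.3), with no covariate. A gene was called when its adjusted p (Benjamini-Hochberg) was below 0.05 and its log2 fold change was beyond 1 in size. SE is the log2 fold change divided by the square root of F. A normalized count is a count scaled to the mean effective library size. The TPM deposited by the authors was used for the 4 libraries whose columns match a title and only as levels. Of the other measures, 14 per-library columns of the gene table and 18 of the transcript table were not used, nor were 8 columns of group means in each. Transcript rows that repeat an accession (3797) were summed, and usage was tested with diffSpliceDGE and a Simes p.

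Totals of 16606401 to 18864241 counts limit precision to the spread between samples. The labels call the samples replicate biosamples and do not say that they were separate cultures, and the study's methods state independent repeats for experiments in general without naming the sequencing, so p-values measure that spread, which may be technical. GC content (in 87 of 87 members) and length came from GENCODE release 29 transcripts and coordinates from RefSeq. Named members were the core subunits of each complex, up to 10 per direction with the smallest unadjusted p under 0.05, all isoforms, copies and read-throughs, the lowest and highest value per complex and the 5 smallest usage p-values. A core subunit that this rule names is not reported here. Further members named in the text, and UQCRC2 and NDUFV2 in the promoter and base composition passages, were chosen after their values were seen. The members and lists were chosen with earlier results of these data known. The procedures were tested on simulated data. Alternatives were DESeq2 1.42.0, limma-voom, 3 other scalings, 2 other filters, GC and length trends, and leaving out each library.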

Additional observations from a re-analysis of the deposited data

How the results depend on the processing

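The count of called members was 0 in every alternative run, and the members' median log2 fold change stayed below 0 in all of them, from -0.50 to -0.26 over the tools, scalings, filters and trend fits and from -0.67 (without sh-NC replicate 3) to -0.09 (without sh-NC replicate 2) over the left-out libraries. An alternative added after seeing the data, with the GC trend removed and sh-NC replicate 2 left out, gave -0.063 over all members and -0.017 in complex I. With library size alone as the scaling, the median of all genes moved to 0.16 and that of the members to -0.26. In complex II the GC fit gave -0.76. Leaving out a library gave -0.72 to -0.054 in complex V and -0.62 to -0.11 in complex I. The count of members lower at an unadjusted p under 0.05 was 9 with DESeq2, 7 with no filter, 13 with the GC trend removed and 25 with GC and length trends removed. Leaving out libraries gave 0 to 27: 23 without sh-NC replicate 1, 2 without replicate 2, 27 without replicate 3, and 0 without library A or B. The count higher was 0 with limma-voom and with the GC trend removed, and 0 to 3 over the left-out libraries (3 without sh-NC replicate 2, 2 without library C, and 0 without sh-NC replicate 1 or 3 or library A or B). For limma-voom, the fit with no filter and the fits without a shRBM10 library, the share of all genes passing is not given. Their counts therefore have no background to be read against. Groups that do not overlap, an alternative added after seeing the data, gave 20 to 27 members lower over the left-out libraries and 0 to 10 higher (17.3% to 28.6% and 15.0% to 33.9% of all genes), with 10 higher without sh-NC replicate 2, 1 higher with library size alone, 1 without library B and 2 without library C. Without library C, 24 members were lower, where all genes gave 28.6% lower and 33.9% higher.

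Signs turned for 18 of 83 members without sh-NC replicate 2, for 5 with the GC trend removed and for 15 with GC and length trends removed. Values follow for the members chosen by the naming rule. With the GC trend removed they were 0.14 for NDUFA4L2, -0.59 for NDUFB5 and -0.67 for SDHD. With GC and length trends removed they were 0.29 for NDUFA4L2, -0.33 for NDUFB5, -0.44 for SDHD, -0.39 for NDUFS1, 0.0042 for NDUFS3, 0.0099 for NDUFS8 and 0.0023 for SDHA. ATP5PB was 0.10 with library size alone. Leaving out each library in turn gave -0.39 to 0.091 for ATP5F1A, -0.26 to 0.16 for ATP5PB and -0.49 to 0.14 for SDHC, each positive without sh-NC replicate 2, -1.38 to 0.12 for ATP5MF-PTCD1, positive without sh-NC replicate 3, and -0.063 to 0.31 for SDHD, negative without sh-NC replicates 1 or 3 or library B. The causes were not tested. No paired analysis was possible because the columns of shRBM10 libraries B and C match no sample label and so carry no replicate number, and a shared column letter was not taken as a pairing. With 3 libraries a group and 1 control that stands apart, the median SE of a member's log2 fold change was 0.32. Differences well above that size could also be missed. RBM10 itself, at -1.24 (SE 0.23), had an edgeR adjusted p of 0.10, so 0 called members does not mean that no member changed.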
